A study of Mus musculus with 6 samples.

Results

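The genes described here encode the NADPH oxidases of epithelium and their partner proteins: Duox1, Duox2, Duoxa1, Duoxa2, Nox1, Noxo1, Noxa1, Cyba and Nox4. They were chosen by symbol as a fixed list of 9, and all 9 were found among the 24452 symbols of each file. RNA-seq had been run on whole small intestine of C57BL/6 mice on postnatal day 14, before weaning. The series holds 3 libraries labelled Erk1/2 KO, whose genotype is given as Erk1/2 -/- with no promoter, Cre line or tissue restriction named, and 3 labelled wild type, from the same strain, tissue and age. Nothing in the labels ties each library to its own animal. The p-values below are therefore set by the scatter among 6 libraries, which may be technical.

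NADPH oxidases are membrane enzymes that pass electrons from NADPH to oxygen and so make superoxide or hydrogen peroxide. DUOX2 and DUOX1 release hydrogen peroxide at the surface of mucosal epithelium and of the thyroid, and each needs a maturation factor, DUOXA2 or DUOXA1, to leave the endoplasmic reticulum. NOX1, best known from colon epithelium, makes superoxide together with the organiser NOXO1, the activator NOXA1, the GTPase RAC1 and the membrane partner p22phox, which Cyba encodes. NOX4 needs p22phox but no organiser or activator. In the gut these enzymes are known for keeping bacteria away from the epithelium.

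The values are normalised counts, that is, reads per gene after scaling of each library and rounding. They summed to between 14825845 and 17153570 in the libraries labelled knockout and to between 13641468 and 14094100 in the wild type libraries. The transcript of a targeted kinase, ERK1, was not lower under the knockout label. Mapk3, which encodes ERK1, averaged 2792 ± 544 normalised counts in the libraries labelled knockout and 2645 ± 582 in wild type libraries (SD, n = 3 each). The value sums the reads of the whole gene and checks no single exon, and higher and lower below always refer to the label, not to a genotype that these data bear out. By Xist and the Y-linked Ddx3y, labelled knockout 1 and wild type 1 and 2 came from males and the other 3 libraries from females. A segment score, the mean log2 value of 6 genes of the proximal intestine less that of 4 genes of the ileum, was 1.68, 5.67 and 5.61 in labelled knockout 1 to 3 and 5.10, 4.79 and 1.73 in wild type 1 to 3. Labelled knockout 1 and wild type 3 therefore stood apart from the other 4 libraries, one in each genotype, and results that rest on them are also given without them. Epithelium was present in every library: all 8 epithelial markers were detected, of which Epcam had at least 20039 normalised counts in each library. Fibroblast and smooth muscle genes were abundant too, with wild type means of 22450 for Col3a1 and 17280 for Myh11.

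Duox2 and Duoxa2, the oxidase and its maturation factor, were far higher in the libraries labelled knockout, and Noxa1 and Noxo1, the activator and the organiser of NOX1, were higher too. Their partner Cyba did not pass the test, nor did Nox4, whose values were lower in the libraries labelled knockout. The oxidase genes Duox1 and Nox1 and the factor gene Duoxa1 were almost silent in both genotypes. The test was limma on log2(normalised count + 1), with Benjamini-Hochberg adjustment over all 14686 genes that reached 10 normalised counts in at least 3 libraries. At an adjusted p under 0.05 this called 8.79% of those genes, 4.85% as higher and 3.94% as lower in the libraries labelled knockout. Of the 9 oxidase genes, 6 passed the filter and 4 of those, Duox2, Duoxa2, Noxa1 and Noxo1, were called higher. Duoxa2 passed the filter only through the libraries labelled knockout, where it is high, so its call is not read against those shares, and 3 of the other 5 were called. Genes with non-overlapping groups made up 37.6% of the genes tested, and 19.8% were higher without overlap. Among the 6 oxidase genes tested there were 5 such genes, 4 of them higher. Duoxa2 is among them and is again not read against those shares. The others were Duox2, Noxa1 and Noxo1, which were higher, and Nox4, which was lower. Counted over all 9 they were 7, where 30.9% of the 19373 symbols above 0 in any library had this pattern. That count includes Duoxa1 and Nox1, at 0 in all wild type libraries and at most 6 and 4 under the knockout label. It is therefore not read as a result about the 9.

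**Figure D1:**
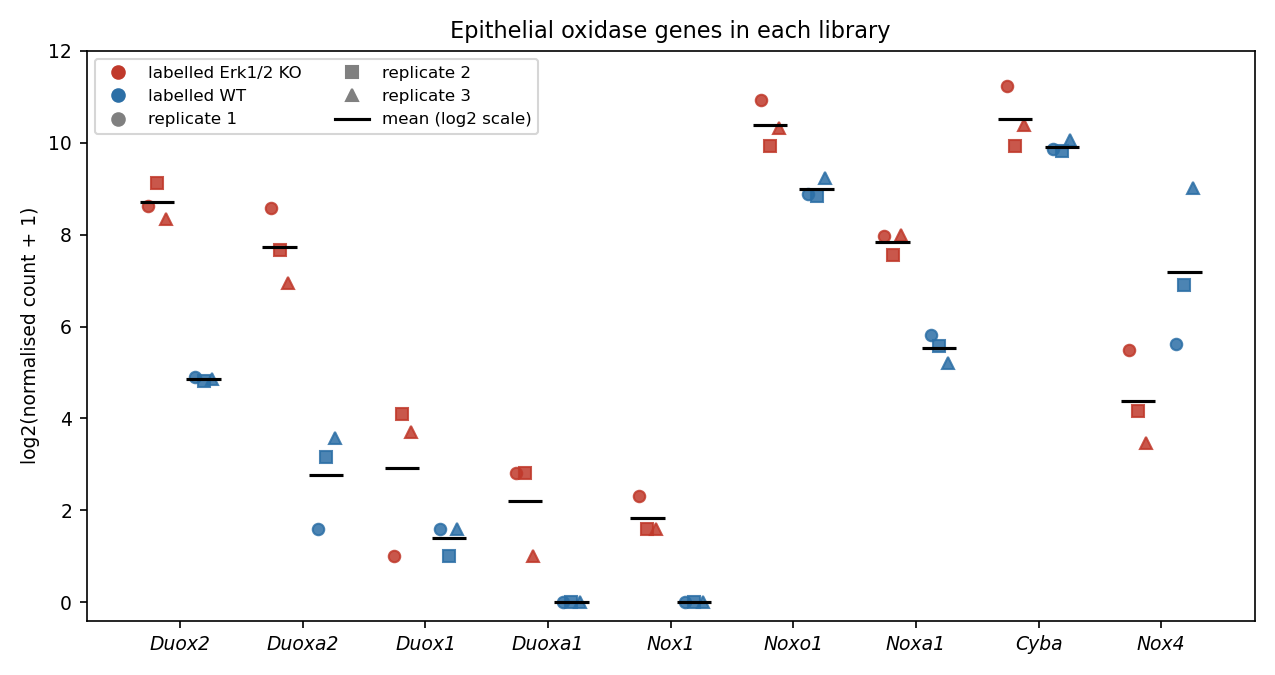
Expression of the 9 oxidase genes in each library, as log2(normalised count + 1), with libraries labelled Erk1/2 KO in red to the left of wild type libraries in blue. Marker shapes give the replicate number and bars the mean on this scale. Duox2, Duoxa2, Noxo1 and Noxa1 have separate groups, while Duox1, Duoxa1 and Nox1 lie near 0.

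Duox2 (ENSMUSG00000068452.8; chromosome 2, 122279247 to 122298449, minus strand, GRCm38) had 396, 559 and 325 normalised counts in labelled knockout 1 to 3, against 29, 27 and 28 in wild type 1 to 3. The wild type libraries were nearly equal, and the lowest library labelled knockout stood far above them. The means were 427 ± 120 in the libraries labelled knockout and 28.0 ± 1.00 in wild type libraries (SD, n = 3 each), a ratio of 15.2. The log2 fold change was 3.85 ± 0.23 (SE), with a 95% interval of 3.31 to 4.38 and a limma adjusted p of 0.00259. It was the one oxidase gene whose call held in each of the 6 fits that left out 1 library, where the log2 fold change ran from 3.63 to 4.02. Among males Duox2 had 396 normalised counts in labelled knockout 1, against 29 and 27 in wild type 1 and 2, and among females 559 and 325 in labelled knockout 2 and 3, against 28 in wild type 3. Wild type 3, with its low segment score, lay between the other wild type libraries in Duox2.

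Duoxa2 (ENSMUSG00000027225.7; chromosome 2, 122298900 to 122302885, plus strand) encodes the factor without which DUOX2 stays in the endoplasmic reticulum. It had 380, 201 and 122 normalised counts in labelled knockout 1 to 3, against 2, 8 and 11 in wild type 1 to 3. All wild type libraries were near the lower end of detection, so the gene passed the filter through the libraries labelled knockout. The means were 234 ± 132 in the libraries labelled knockout and 7 ± 4.58 in wild type libraries (SD, n = 3 each), and the log2 fold change was 4.94 ± 0.61 (limma adjusted p = 0.0125), the largest of the 6. The call was lost without labelled knockout 3 (5.34, adjusted p = 0.0542) and without wild type 2 (5.14, adjusted p = 0.0684).

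Both genes lie head to head on chromosome 2. Their GENCODE start sites are 451 bases apart on opposite strands, and the RefSeq start sites 673 bases apart. The Duox1 and Duoxa1 pair follows in mirrored order, with start sites 1942 bases apart. Duoxa1 and Duoxa2 share 682 bases of exon on opposite strands, 42.8% of the Duoxa2 exon length. Whether reads were counted by strand is not given in the sources used here, and reads in that stretch could belong to either gene.

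**Figure D2:**
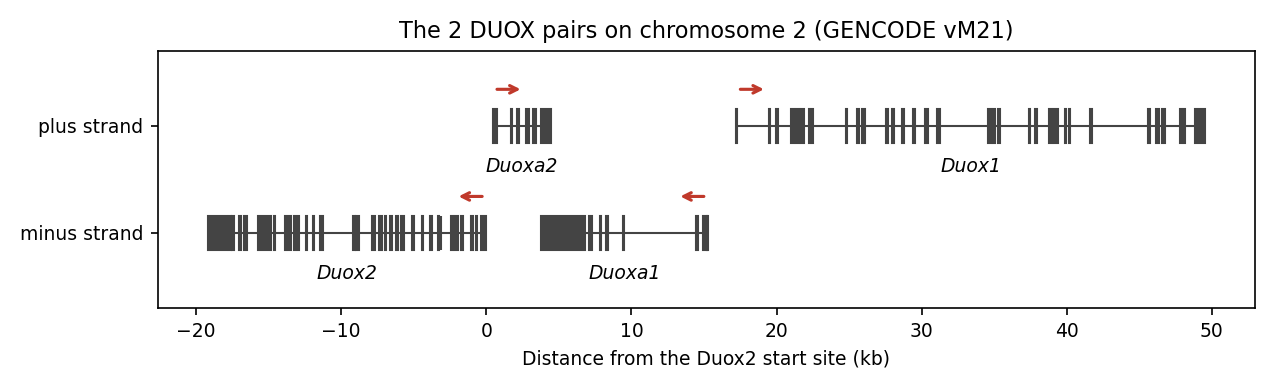
The DUOX genes on chromosome 2, drawn to scale in kb from the GENCODE start of Duox2, with exons as boxes and red arrows at start sites pointing in the direction of transcription. Duoxa2 and Duox2 start 451 bases apart and run away from each other, and Duox1 and Duoxa1 repeat the arrangement 1942 bases apart.

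The 4 genes called higher are shown by their promoter windows, 250 bases before to 50 after the RefSeq start (GRCm38.p6), because Duox2 and Duoxa2 start close together and moved together, and Noxo1 and Noxa1 serve one enzyme. Capitals mark matches, on either strand, to TTCNNNGAA (STAT), the NF-kB motif (GGGA, 4 bases of any kind, then CC), TGANTCA (AP-1), ACCGGAAG (ETS) and GCGTG (the core of the hypoxia response element). Each sequence is given 5′ to 3′ on the strand of its gene.
Duox2, chr2:122298178-122298477, minus strand: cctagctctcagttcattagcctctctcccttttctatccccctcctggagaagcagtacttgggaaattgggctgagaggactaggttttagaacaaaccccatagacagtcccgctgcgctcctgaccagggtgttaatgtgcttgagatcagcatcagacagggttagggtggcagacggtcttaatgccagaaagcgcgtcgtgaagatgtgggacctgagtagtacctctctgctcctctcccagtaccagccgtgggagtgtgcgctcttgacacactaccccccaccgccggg
Duoxa2, chr2:122298650-122298949, plus strand: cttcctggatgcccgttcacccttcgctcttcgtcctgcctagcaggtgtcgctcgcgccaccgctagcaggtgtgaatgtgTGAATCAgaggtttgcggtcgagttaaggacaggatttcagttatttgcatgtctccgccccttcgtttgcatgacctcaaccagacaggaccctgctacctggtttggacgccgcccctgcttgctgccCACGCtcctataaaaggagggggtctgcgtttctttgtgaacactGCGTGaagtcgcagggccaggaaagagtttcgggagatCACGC
Noxo1, chr17:24695984-24696283, plus strand: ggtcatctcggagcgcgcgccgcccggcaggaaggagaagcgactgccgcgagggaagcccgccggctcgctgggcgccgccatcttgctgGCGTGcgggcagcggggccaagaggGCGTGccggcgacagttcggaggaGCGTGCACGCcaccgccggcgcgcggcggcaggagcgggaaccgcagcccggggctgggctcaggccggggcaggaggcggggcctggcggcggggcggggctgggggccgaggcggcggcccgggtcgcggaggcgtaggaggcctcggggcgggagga
Noxa1, chr2:25095156-25095455, minus strand: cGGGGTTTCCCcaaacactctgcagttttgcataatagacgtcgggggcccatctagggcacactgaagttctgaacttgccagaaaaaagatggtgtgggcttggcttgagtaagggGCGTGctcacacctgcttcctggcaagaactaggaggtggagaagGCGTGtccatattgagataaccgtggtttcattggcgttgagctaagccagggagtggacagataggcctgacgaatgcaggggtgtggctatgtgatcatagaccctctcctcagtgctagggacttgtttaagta
The Duox2 window held none of the 5 motifs. It is placed on the RefSeq start at 122298227, whereas the GENCODE start is at 122298449. By GENCODE most of this window is therefore first exon. The stretch between it and the Duoxa2 window was not searched, so motifs just before the GENCODE start were largely not examined. Farther upstream of that start lies the Duoxa2 window, whose matches before the Duoxa2 start thus fall between both genes. The Duoxa2 window held TGAATCA, an AP-1 match that begins 168 bases before the start, and 3 matches to GCGTG. Over 27025 promoter windows of the same length, 1 per symbol, 7.93% held the AP-1 motif and 32.5% held GCGTG. The Noxo1 window, with 80.3% G or C, held 4 matches to GCGTG, a pair of which abut. The Noxa1 window held 2 matches to GCGTG and, 249 bases before the start, GGGGTTTCCC, an NF-kB match on the other strand, a motif present in 20.5% of windows. Outside these 4 genes, the STAT motif, present in 8.47% of windows, was found in Nox4 and the NF-kB motif in Nox1 and Cyba. GCGTG was also found in Duox1, Duoxa1 and Nox4, none of them called, so it was not particular to the genes called higher. The ETS motif, present in 2.34% of windows, was in no window of the 9 genes.

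The other DUOX pair stayed at very low values. Duox1 (chromosome 2, 122315672 to 122347972, plus strand) had 1, 16 and 12 normalised counts in labelled knockout 1 to 3, against 2, 1 and 2 in wild type 1 to 3. Labelled knockout 1 lay within the wild type range, so the groups overlapped. Duoxa1 (chromosome 2, 122302191 to 122313730, minus strand) had 6, 6 and 1 in labelled knockout 1 to 3 and was listed at 0 in all 3 wild type libraries. Neither passed the filter. With no filter, Duox1 had an adjusted p of 0.281 and Duoxa1 of 0.0645 in limma.

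Nox1 (chromosome X, 134086421 to 134221956, minus strand), the catalytic subunit that NOXO1 and NOXA1 serve, was barely detected. It had 4, 2 and 2 normalised counts in labelled knockout 1 to 3 and was listed at 0 in all wild type libraries. With no filter limma called it higher (adjusted p = 0.0372), a call made on values of 4 or less. Of 8 colon markers, Car1, Hoxb13 and Hoxd13 were at 0 in every library and Hoxd10 did not exceed 1, and the summed level of all 8 ran from 1722 to 1872 in the libraries labelled knockout and from 1399 to 3869 in wild type libraries.

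Noxa1 (ENSMUSG00000036805.13; chromosome 2, 25085667 to 25095149, minus strand), the activator subunit, had 251, 188 and 253 normalised counts in labelled knockout 1 to 3, against 55, 47 and 36 in wild type 1 to 3. The lowest library labelled knockout lay well above the highest wild type library. The means were 231 ± 37.0 in the libraries labelled knockout and 46.0 ± 9.54 in wild type libraries (SD, n = 3 each), and the log2 fold change was 2.31 ± 0.22 (SE; limma adjusted p = 0.0074). Without labelled knockout 3 the call was lost at 2.24 (adjusted p = 0.0542), and it held in the other 5 fits that left out 1 library.

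Noxo1 (ENSMUSG00000019320.14; chromosome 17, 24696234 to 24700529, plus strand), the organiser that tethers the complex to the membrane, had 1945, 968 and 1271 normalised counts in labelled knockout 1 to 3, against 469, 456 and 604 in wild type 1 to 3. The groups did not overlap, and labelled knockout 1 was the highest library. The means were 1395 ± 500 in the libraries labelled knockout and 510 ± 82.0 in wild type libraries (SD, n = 3 each), and the log2 fold change was 1.40 ± 0.27 (SE; limma adjusted p = 0.0296). This call was the least firm of the 4. It was lost without labelled knockout 3 (adjusted p = 0.108), without wild type 1, 2 or 3 (0.111, 0.148 and 0.0602), and with sex as a covariate (0.0554), at log2 fold changes of 1.33 to 1.53. Exons of Tbl3, a gene of ribosome assembly on the opposite strand, cover 70.4% of the Noxo1 exon length. Tbl3 had 918, 777 and 782 normalised counts in labelled knockout 1 to 3, against 578, 526 and 556 in wild type 1 to 3, and was itself called higher, at 0.57 ± 0.13 (adjusted p = 0.0463). Without a known strand setting, reads from the shared stretch cannot be told apart.

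Cyba (ENSMUSG00000006519.11; chromosome 8, 122424776 to 122432930, minus strand), which encodes the p22phox partner shared by NOX1, NOX4 and the phagocyte oxidase, was the most abundant of the 9 per length. It had 2401, 978 and 1345 normalised counts in labelled knockout 1 to 3, against 928, 898 and 1072 in wild type 1 to 3. Labelled knockout 2 lay within the wild type range. The log2 fold change of 0.61 ± 0.31 did not pass (limma adjusted p = 0.238), with a 95% interval of -0.14 to 1.35, and its size rested on labelled knockout 1. It was 0.25 without that library (adjusted p = 0.308) and 0.33 without both libraries of low segment score (adjusted p = 0.178). With the segment score as a covariate it was called at 0.69 (adjusted p = 0.0316), in a fit that called 4308 of 14686 genes.

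Nox4 (ENSMUSG00000030562.17; chromosome 7, 87246096 to 87398710, plus strand), a constitutively active oxidase of kidney, vessels and fibroblasts, ran the other way. It had 44, 17 and 10 normalised counts in labelled knockout 1 to 3, against 48, 119 and 519 in wild type 1 to 3. The groups touched without overlapping, and the wild type libraries were themselves widely spread. The means were 23.7 ± 18.0 in the libraries labelled knockout and 229 ± 254 in wild type libraries (SD, n = 3 each). The log2 fold change of -2.81 ± 0.89 did not pass (limma adjusted p = 0.0906). It passed without labelled knockout 1 (-3.37, adjusted p = 0.0475), without both libraries of low segment score (-2.45, adjusted p = 0.0128) and with the segment score as a covariate (-2.54, adjusted p = 0.00793). These fits called 2998 of 14525, 3762 of 14232 and 4308 of 14686 genes, against 1291 of 14686 with all 6 libraries and no covariate. Without wild type 3 the Nox4 log2 fold change was -1.89 (adjusted p = 0.167). Markers of tissues known to express Nox4 are set beside it, where 3.94% of all genes tested were called lower. Of 6 endothelial markers Pecam1, Cdh5 and Kdr were called lower, by -0.74, -0.78 and -0.81 on the log2 scale. Their calls were lost without labelled knockout 3, without any 1 wild type library and with sex as a covariate, where none of the 6 was called, and 1 was called without labelled knockout 2. The summed level of the 6 was 3859, 3843 and 3773 in labelled knockout 1 to 3 and 6031, 6445 and 5104 in wild type 1 to 3. Wild type 3, the highest library for Nox4, was thus the lowest wild type library for this sum. Of 6 fibroblast and 6 smooth muscle markers none was called. The part of these cells in the Nox4 values was not tested. In whole tissue, fewer cells of a type and less RNA per cell cannot be told apart.

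**Figure D3:**
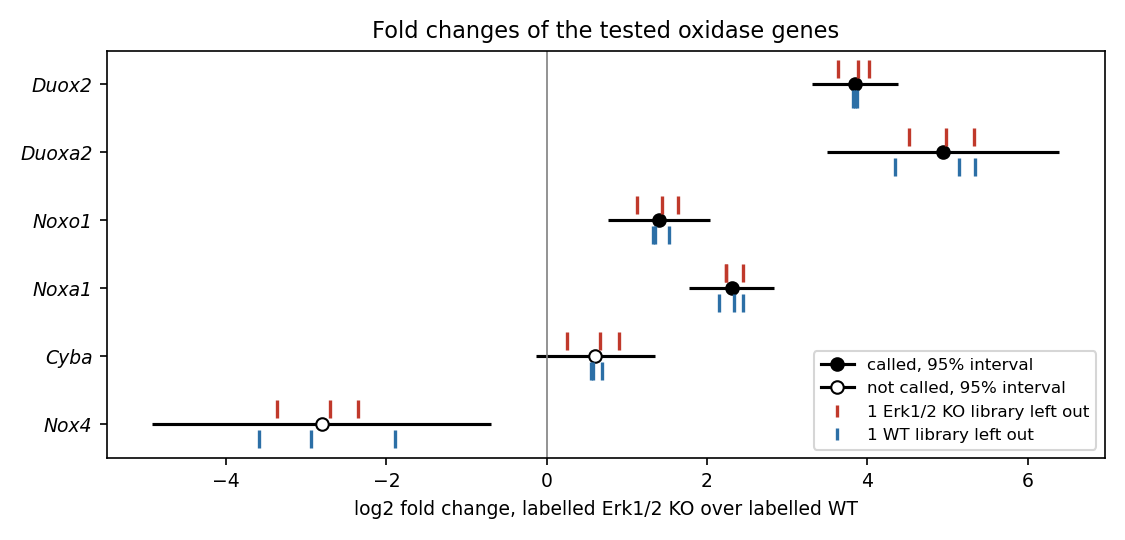
Log2 fold changes of the 6 tested oxidase genes, libraries labelled Erk1/2 KO over wild type, with 95% intervals from limma. Filled circles are called and open circles are not. Ticks show the value after leaving out 1 library labelled knockout (red) or 1 wild type library (blue). Duox2 stays between 3.63 and 4.02, while Nox4 moves between -3.59 and -1.89.

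Without both libraries of low segment score, labelled knockout 1 and wild type 3, the fit called 3762 of 14232 genes tested. Among the oxidase genes the calls were Duox2, Noxo1, Noxa1 and Nox4, and Duoxa2 did not pass the filter in the remaining 4 libraries. The count of calls over all genes depended more on single libraries. It was 1291 with all 6, 712 higher and 579 lower, and ran from 28 without labelled knockout 3 to 2998 without labelled knockout 1. The share of calls that were higher was 55.2% as deposited, 29.7% when scaled by totals and 44.5% when scaled by upper quartiles. Totals gave a median over all genes of -0.185 on the log2 scale, against -0.013 as deposited. The direction of each of the 6 tested oxidase genes was the same under each of these scalings.

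To compare levels between genes, normalised counts were divided by the exon length in kb. In the libraries labelled knockout Cyba had 1514 ± 710 normalised counts per kb, Noxo1 463 ± 166, Duoxa2 147 ± 83.1, Noxa1 142 ± 22.8 and Duox2 63.0 ± 17.7 (SD, n = 3). Duoxa2 and Noxa1 did not differ there beyond their spread, and Nox4 (2.79 ± 2.12), Duox1 (1.83 ± 1.47) and Duoxa1 (1.09 ± 0.73) followed at the low end. In wild type libraries Cyba had 929 ± 89.4 per kb, Noxo1 169 ± 27.2, Noxa1 28.4 ± 5.89, Nox4 27.0 ± 30.0, Duoxa2 4.40 ± 2.88 and Duox2 4.14 ± 0.15 (SD, n = 3). Noxa1 and Nox4, and likewise Duoxa2 and Duox2, were within each other's spread there. Nox1 was at 0.81 ± 0.35 per kb in the libraries labelled knockout and at 0 in wild type libraries, so the transcripts of its partners far outnumbered its own.

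**Figure D4:**
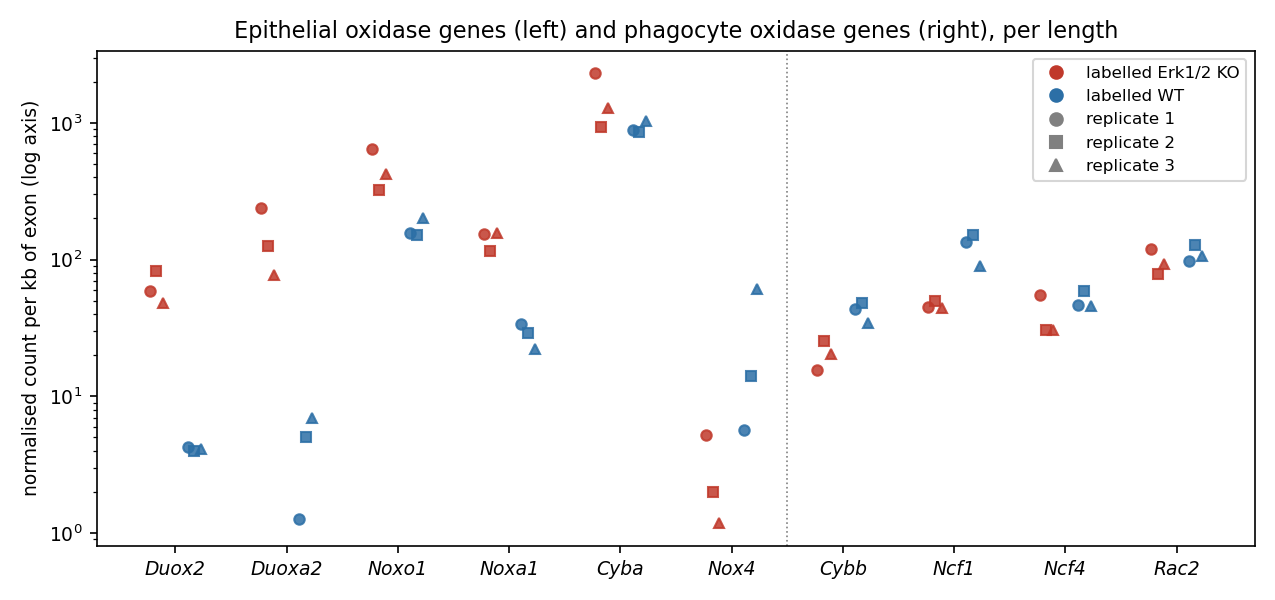
Level of each gene as normalised count per kb of exon on a log axis, with libraries labelled Erk1/2 KO in red to the left of wild type libraries in blue. Epithelial oxidase genes stand left of the dotted line and phagocyte oxidase genes right of it. Duox1, Duoxa1 and Nox1, which did not pass the filter, are not drawn. Duox2 and Duoxa2 lie below the 4 phagocyte genes drawn in wild type libraries, and Duox2 reaches 48.0 to 82.6 per kb in the libraries labelled knockout.

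Whether partners responded alike was asked with 5 ratios within a library, each tested with a two-sided exact permutation test, which cannot go below 0.10 with 3 libraries against 3. The log2 ratio of Duox2 over Duoxa2 was 0.98 ± 0.80 in the libraries labelled knockout and 2.08 ± 1.09 in wild type libraries (SD, n = 3 each; exact p = 0.30, adjusted p = 0.375 over the 5 ratios). Its values overlapped between the genotypes, ranging from 0.06 to 1.47 and from 1.27 to 3.32, so a difference in response between the oxidase and its factor was not shown. Duox2 over Duox1 was 5.77 ± 1.62 in the libraries labelled knockout and 3.47 ± 0.30 in wild type libraries (SD, n = 3 each; exact p = 0.10, the smallest possible, adjusted p = 0.167). The difference of 2.31 was 1.38 without labelled knockout 1, where Duox1 had 1 normalised count. Duox2 over Nox1 differed by 2.02 and Noxo1 over Nox1 by -0.43 (exact p = 0.10 and adjusted p = 0.167 for each). The difference for Noxo1 over Nox1 was 0.79 with a pseudocount of 5, so ratios to Nox1 rest on the pseudocount. Duox1 over Duoxa1 differed by -0.67 (exact p = 0.80, adjusted p = 0.80), and by 0.60 without labelled knockout 1.

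Of the genes of the phagocyte oxidase, which carries the same reaction in neutrophils and macrophages, 4 were examined and none was called higher. Over all genes tested 4.85% were called higher and 3.94% lower. Ncf1, the organiser p47phox and counterpart of Noxo1, had 166, 183 and 163 normalised counts in labelled knockout 1 to 3, against 489, 559 and 328 in wild type 1 to 3, and its log2 level fell by 1.39 ± 0.22 (limma adjusted p = 0.0200). Cybb, the catalytic subunit gp91phox, had 90, 147 and 118 in labelled knockout 1 to 3, against 252, 281 and 201 in wild type 1 to 3, and fell by 1.06 ± 0.23 (adjusted p = 0.0403). Both genes had separate groups. Ncf4, a regulatory subunit, was at -0.42 ± 0.27 and Rac2, the GTPase of blood cells, at -0.20 ± 0.20, neither of them called. The number called lower of the 4 was 3, 2 and 0 without labelled knockout 1, 2 and 3 and 0, 0 and 1 without wild type 1, 2 and 3, and it was 1 with no filter on low values or with sex as a covariate. The median log2 fold change of the 4 was -0.74, against -0.013 over all genes tested.

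Of the regulators of these oxidases, 8 of the 9 listed symbols were found and 1 was called, against 8.79% of all genes tested. Rac1, the GTPase that switches on NOX1, had 5637, 5328 and 5047 normalised counts in labelled knockout 1 to 3, against 3561, 3180 and 3861 in wild type 1 to 3, and its log2 level rose by 0.60 ± 0.14 (limma adjusted p = 0.0466). The call was close to the threshold: no regulator was called higher when scaled by totals or upper quartiles, with no trend, with no filter on low values or with sex as a covariate. Hvcn1, the proton channel of phagocytes, was at -0.91 ± 0.24 and was not called (adjusted p = 0.0606). Prkcd, a kinase that phosphorylates organiser subunits, was at 0.20 ± 0.15, and Pdia4 and Poldip2 were at 0.10 ± 0.18 and 0.03 ± 0.13. No regulator was called without labelled knockout 2 or 3 or without any 1 wild type library, and without labelled knockout 1 1 was called higher and 1 lower.

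Peroxidases that use hydrogen peroxide were mostly silent. Lpo, the lactoperoxidase of secretions and milk, had 6, 12 and 27 normalised counts in labelled knockout 1 to 3, against 1, 6 and 0 in wild type 1 to 3, and did not pass the filter. Mpo and Epx did not exceed 5 in any library. Pxdn, a peroxidase of basement membranes, was the 1 peroxidase tested, at -0.73 ± 0.19 (limma adjusted p = 0.0606).

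Enzymes that remove hydrogen peroxide and superoxide were called in 6 of 18 cases, 5 higher and 1 lower. Over all genes tested 8.79% were called, 4.85% higher and 3.94% lower. The median log2 fold change of the 18 was 0.53, against -0.013 over all genes tested. Gpx2, the glutathione peroxidase of gut epithelium, had 8010, 6241 and 3715 normalised counts in labelled knockout 1 to 3, against 793, 692 and 494 in wild type 1 to 3. Its log2 level rose by 3.14 ± 0.31 (limma adjusted p = 0.00775). Txn1 (1.25 ± 0.15), Prdx1 (1.20 ± 0.15), Gpx1 (1.18 ± 0.16) and Prdx6 (0.98 ± 0.18), which encode thioredoxin, a pair of peroxiredoxins and the general glutathione peroxidase, also rose. Cat, which encodes catalase, fell by 0.89 ± 0.21 (adjusted p = 0.0467), a call lost with no filter on low values, with no trend and with sex as a covariate. Gpx3, the secreted glutathione peroxidase, had 51865, 4645 and 1521 in labelled knockout 1 to 3, against 25504, 39321 and 110592 in wild type 1 to 3, and was not called. Without labelled knockout 1, 2 and 3 the calls in this list were 10, 4 and 1, and without wild type 1, 2 and 3 they were 2, 1 and 4.

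Of 18 cytokines, receptors and adaptors listed as candidate inducers or sensors upstream of Duox2, 14 were tested and none was called higher. The shares over all genes tested were 4.85% higher and 3.94% lower. Il22 and Il17a, cytokines that induce epithelial defence genes, did not exceed 1 normalised count in any library. Il1b had 144, 95 and 85 in labelled knockout 1 to 3, against 53, 88 and 28 in wild type 1 to 3, and at 1.03 ± 0.43 on the log2 scale it did not pass (limma adjusted p = 0.155). Socs3, a target of STAT3, was at 0.75 ± 0.26 (adjusted p = 0.105), and Stat3 itself at 0.29 ± 0.18. Tlr5, the flagellin receptor, was the 1 gene called, and fell by 1.33 ± 0.25 (adjusted p = 0.0300), a call lost without labelled knockout 2 or 3, without any 1 wild type library and with sex as a covariate. In the fit without labelled knockout 1, 2 of the 14 were called higher and 1 lower.

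**Figure D5:**
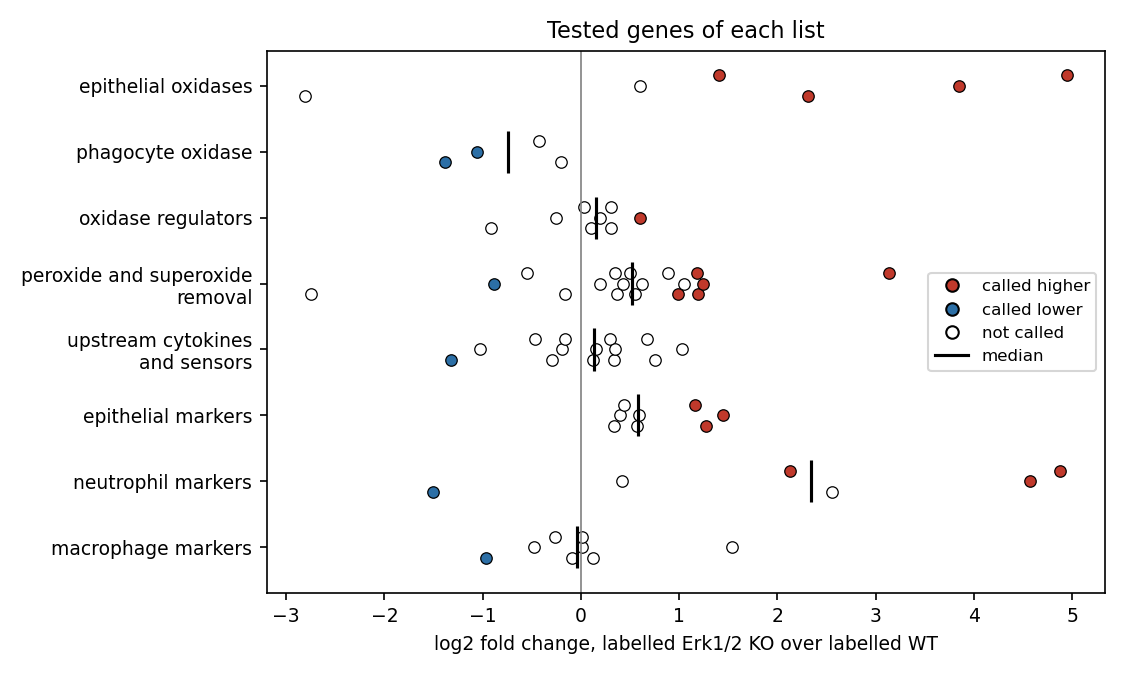
Log2 fold changes of the tested genes of 8 lists, libraries labelled Erk1/2 KO over wild type. Red and blue points are called higher and lower, open points are not called, and black lines are medians (none is drawn for the epithelial oxidases, which were chosen as a list of interest). None of the 4 phagocyte oxidase genes is called higher, and 5 of 18 removal enzymes are, where 4.85% of all genes tested are.

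Some epithelial markers were called higher, as were 4.85% of all genes tested. Of 8, Krt19 (1.45 ± 0.18), Krt8 (1.28 ± 0.20) and Cldn3 (1.16 ± 0.21) rose, and the other 5 were not called, among them Epcam (0.40 ± 0.20) and Vil1 (0.44 ± 0.15). The calls numbered 4, 3 and 0 without labelled knockout 1, 2 and 3, and 1, 0 and 2 without wild type 1, 2 and 3. The summed level of the 8 was 154222 to 177923 normalised counts in the libraries labelled knockout and 85650 to 105628 in wild type libraries. Set against this sum, Duox2 had 223, 362 and 200 normalised counts per 100000 epithelial marker counts in labelled knockout 1 to 3, against 31.4, 31.5 and 26.5 in wild type 1 to 3. The ratio of the means was 8.78, with separate groups. The same ratio was 19.1 for Duoxa2, 2.82 for Noxa1 and 1.55 for Noxo1, each with separate groups, and 0.915 for Cyba, whose groups overlapped. These ratios are not levels per epithelial cell, because the sum holds genes called higher. Krt8 and Krt19 averaged 48970 and 24250 normalised counts in the libraries labelled knockout, against 20410 and 8919 in wild type libraries. Epcam, not called, averaged 30330 against 23250.

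Markers of neutrophils moved in both directions. S100a9, S100a8 and Ltf rose, Retnlg fell, and Ngp and Csf3r were not called among the 6 tested of 11. S100a8 and S100a9, at no more than 4 and 17 normalised counts in wild type libraries, passed the filter only through the libraries labelled knockout, where they are high, so the number called higher is not read as a result about the list. None of these was called without labelled knockout 3 or without wild type 1 or 2, and 2 of 5 tested were called without labelled knockout 2. The summed level of the 11 was 427 to 1054 normalised counts in the libraries labelled knockout and 249 to 314 in wild type libraries. Elane and Mpo did not exceed 1 and 5 in any library. Ly6g had 11, 5 and 3 in labelled knockout 1 to 3, against 0, 0 and 1 in wild type 1 to 3. S100a8, S100a9 and Ltf can also be made by epithelium. Of 8 macrophage markers Adgre1 alone was called, at a log2 fold change of -0.96 ± 0.22, where 3.94% of all genes tested were called lower. Its call was lost without labelled knockout 3 or any 1 wild type library. It was also lost with no filter on low values, with no trend or with sex as a covariate. The summed level of the 8 was 4045 to 9017 in the libraries labelled knockout and 5265 to 7557 in wild type libraries. The part of these cells in the oxidase values was not tested.

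Likeness of pattern was measured as the root mean square difference between the log2 profiles of 2 genes over the 6 libraries, each centred on its mean. For a gene with a large fold change, the step between the genotypes weighs most in this measure, so genes with a like step come closest. Shared control was not tested. Closest to Duox2 were Prss32 (0.32), Fam3b (0.39), Tat (0.40), Slc28a3 (0.48) and Gpx2 (0.49), where the median over all tested genes was 1.96. They encode a serine protease, a secreted cytokine-like protein, tyrosine aminotransferase, a nucleoside transporter and the peroxidase described above. Prss32 had 4483, 3910 and 3901 normalised counts in labelled knockout 1 to 3, against 387, 283 and 394 in wild type 1 to 3. Closest to Duoxa2 were Ocm (0.43), Saa3 (0.59), Mmp3 (0.76), Ptk6 (0.78) and Chrdl2 (0.78), with a median over all genes of 2.61. They encode a calcium-binding parvalbumin, a serum amyloid, a metalloprotease, an epithelial kinase and a secreted BMP antagonist. Ocm had 70, 28 and 29 in labelled knockout 1 to 3, against 0, 1 and 3 in wild type 1 to 3. Tat, Ocm, Mmp3 and Chrdl2 did not exceed 6 in any wild type library. They passed the filter only through the libraries labelled knockout, where they are high. Closest to Nox1, whose profile rests on values of 4 or less, were Fdps (0.10) and Il1rl1 (0.10).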

How the data were processed

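Small intestine was frozen and RNA extracted with Trizol, and libraries were made with the Illumina TruSeq RNA kit, per the labels' protocols. Per the submitters' processing notes the tools were HTSeq 0.6.0, TopHat2 2.1.0 and DESeq2, with the build mm10 and no roles given. The deposited score per gene is a whole number that is not a raw count: recomputed median-ratio factors were 1.0054 to 1.0088 in all 6 files although totals differed, and 6, 1 and 4 of the whole numbers from 1 to 40 occurred in no gene of labelled knockout 1 and 3 and wild type 3. No count model was therefore used, and intervals for counting error were not computed. The authors' scaling was kept. limma 3.58.1 in R 4.3.3 was fitted with genotype as the only term and an intensity trend, on log2(normalised count + 1). Fold changes on this scale understate low genes. The script was tested on simulated data. Coordinates and exon lengths are from GENCODE vM21 (GRCm38) and promoters from RefSeq (GRCm38.p6), and all 9 genes matched both. The 9 genes, the other lists, the 5 ratios, the motifs and the tests were chosen with earlier results of these data known. Genes named were the 9, the closest profiles of Duox2, Duoxa2 and Nox1, and in each list the genes called with up to 3 abundant others, with some left out. Some genes are not reported here. Replicate numbers were not used to pair the libraries, except in the replicate block. Alternatives changed pseudocount, filter, scaling, trend, threshold, covariates and libraries.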

Additional observations from a re-analysis of the deposited data

How the results depend on the processing

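The sign of each of the 6 tested oxidase genes was the same in every alternative that tested it. With all libraries 1291 genes and 4 oxidase genes were called. Over the fits that left out 1 library the counts ran from 28 to 2998 genes and from 1 to 5 oxidase genes. All genes called were 4308 with the segment score and 459 with sex as a covariate, 3762 without both libraries of low segment score, 52 at a threshold of 0.01 and 2847 at 0.1. At 0.01, 2 oxidase genes were called. With no filter 935 of 19373 genes were called, with Nox1 as the fifth oxidase gene. With the replicate block 64 genes and 2 oxidase genes, Duox2 and Noxa1, were called. The deviations of same-numbered libraries correlated at -0.373, 0.302 and -0.161, with no common sign. With 3 libraries per genotype, deviations from the genotype mean are tied to each other, so this check cannot exclude a pairing by number. The difference in Duox1 over Duoxa1, -0.67 with all libraries, was 0.109 with a pseudocount of 5, from -1.65 to 0.60 over the fits that left out 1 library, and 0.70 without both libraries of low segment score. Duox2 over Nox1 was 1.26 and 3.07, and Noxo1 over Nox1 -1.20 and 0.79, with pseudocounts of 0.5 and 5. These genes have values near 0, where the pseudocount sets the ratio. Duox1, Duoxa1 and Nox1 had too few reads for a fold change at this depth.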

Other observations

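The profiles closest to the other oxidase genes were listed after their values had been seen, by the same root mean square difference over the 6 libraries. Closest to Noxo1 were Mfsd6l (0.08), Smim6 (0.10) and Pllp (0.13), which encodes the membrane protein plasmolipin. Mfsd6l had 632, 308 and 383 normalised counts in labelled knockout 1 to 3, against 144, 125 and 188 in wild type 1 to 3. Closest to Noxa1 were Htr7 (0.18), Mmp10 (0.19) and Aldh1l1 (0.19), and Msmo1, an enzyme of cholesterol synthesis, was the fourth (0.22). Htr7 did not exceed 2 in any wild type library and passed the filter only through the libraries labelled knockout. Mmp10, a secreted metalloprotease, had 936, 605 and 932 in labelled knockout 1 to 3, against 235, 217 and 170 in wild type 1 to 3. Closest to Nox4 was the complement gene C2 (0.51), with 807, 200 and 131 in labelled knockout 1 to 3, against 520, 972 and 2993 in wild type 1 to 3. Wild type 3 was the highest library for both C2 and Nox4. Atp11a, a phospholipid flippase of the plasma membrane, was the fourth closest to Nox4 (0.69), with 1736, 611 and 399 in labelled knockout 1 to 3, against 1478, 2610 and 5068 in wild type 1 to 3. The genotypes overlapped for both C2 and Atp11a.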
